A study of Mus musculus with 19 samples.

Results

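Acta1, Actc1, Myh6, Myh7, Nppa, Nppb and Rcan1 are genes of the cardiomyocyte that are read as signs of cardiac load or of a return to a fetal expression programme. They were followed in mouse hearts perfused outside the body and exposed to a short ischemia. The members were chosen by symbol, with earlier results of these data known. Each is the probe set that the platform annotation gives to that symbol alone, and each gene had 1 such probe set. All 7 were measured, among 22180 genes and 41345 probe sets on Affymetrix whole-transcript arrays.

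The 19 hearts, 1 array each, formed 3 groups. Wild-type C57Bl6J mice gave 7 hearts at ZT0 (lights on) and 7 hearts at ZT12 (lights off), and mice without Rev-erb alpha gave 5 hearts at ZT12, with no strain given in their labels. Rev-erb alpha, encoded by Nr1d1, is a nuclear receptor that represses genes of the circadian clock. All hearts were taken out and perfused through the aorta on a Langendorff apparatus. After 20 min to stabilise, flow was stopped for 20 min and then restored for 20 min, so that each group, the controls included, had been through ischemia and reperfusion. The labels give no age, sex or batch, and knockout hearts at ZT0 were not analysed here.

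In rodents the ventricle before birth uses much beta myosin heavy chain (Myh7), skeletal alpha actin (Acta1) and the natriuretic peptides (Nppa and Nppb), and after birth alpha myosin heavy chain (Myh6) and cardiac alpha actin (Actc1) prevail. Overload of the adult heart is known to raise the fetal forms again. Rcan1 encodes a regulator of calcineurin, the calcium-dependent phosphatase that activates NFAT transcription factors, and its own transcription is raised by NFAT.

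Values are on the log2 scale of the deposited array values, so a difference of 1 is a doubling. They depend on the probes as well as on the RNA, so levels of different genes were not set against each other. A gene was called changed at a Benjamini-Hochberg adjusted p under 0.05 in a limma model over all genes. Array medians were 3.25 to 3.32, the highest value on any array was 12.88, and correlations between arrays over all probe sets were 0.972 to 0.985. Ventricular markers were present in all hearts, with Myl2 between 7.391 and 7.84. The Nr1d1 probe set read 5.764 to 6.669 in wild-type hearts at ZT0, 6.456 to 7.281 at ZT12 and 6.298 to 6.506 in knockout hearts, and which exons the knockout lacks is not given in the sources used here, so this probe set is no check of the genotype.

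Some hearts carried little atrial muscle RNA. The mean of 7 atrial muscle markers (Myl4, Myl7, Sln, Bmp10, Dkk3, Kcnj3 and Stard10) was 7.153 to 8.678 at ZT0, 5.18 to 8.443 in wild-type hearts at ZT12 and 4.734 to 8.395 in knockout hearts. It was 5.25 or below in 4 hearts, WT ZT12 replicate 5 and KO ZT12 replicates 2, 4 and 5, and 6.35 or above in the other 15. None of the 7 markers passed the test in any comparison, although all 7 were lower in each, with medians of -0.69 between the times of day in wild type, -0.94 between the genotypes at ZT12 and -1.55 between knockout hearts and ZT0. In whole tissue, fewer cells of a type and less RNA per cell cannot be told apart. The results are given below with and without these 4 hearts; leaving them out leaves 2 knockout hearts.

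**Figure D1:**
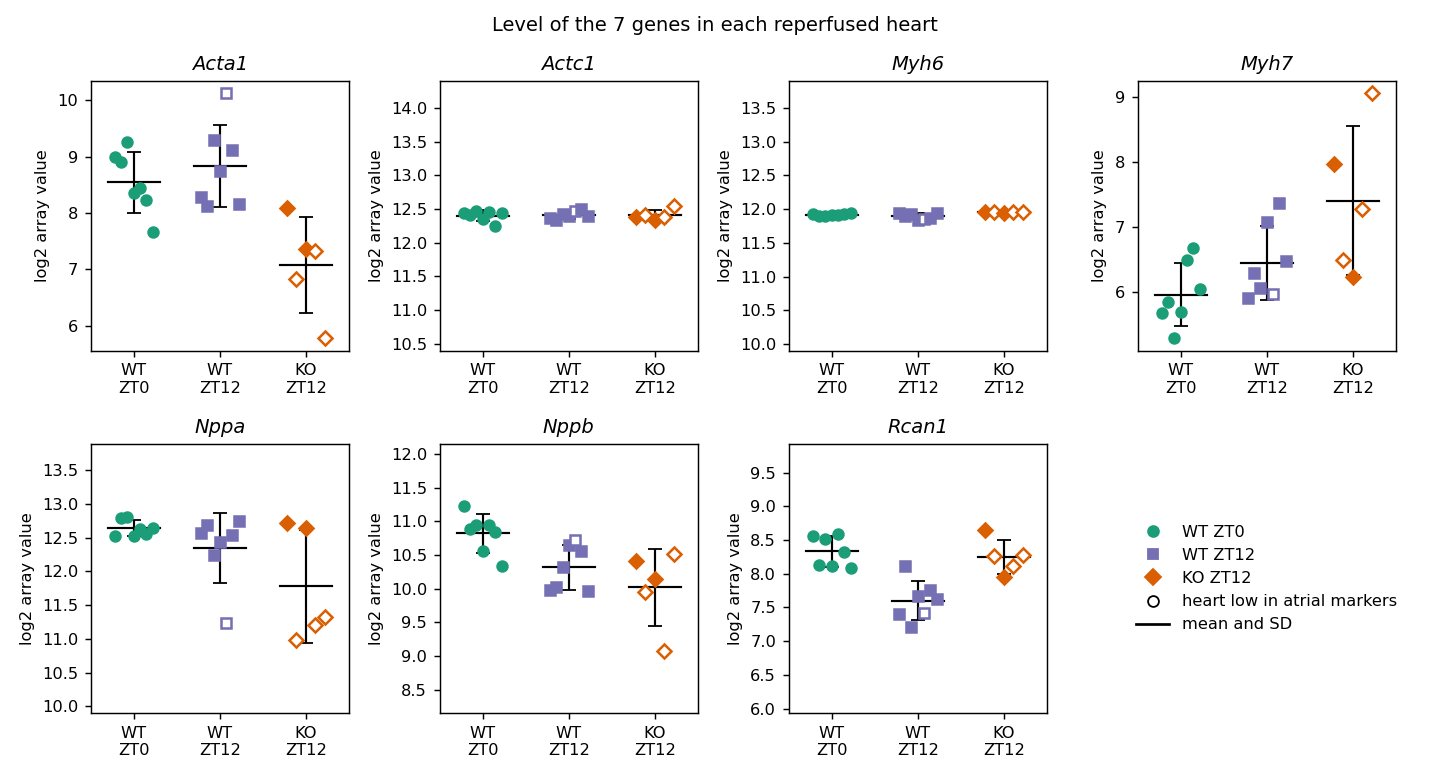
Log2 array value (vertical axis) of the 7 genes in each heart of the 3 groups (horizontal axis); points are hearts, open points the 4 hearts low in atrial markers, lines the mean and bars the SD. Acta1 is lower in all 5 knockout hearts than in all 7 wild-type hearts at ZT12, Rcan1 is lower at ZT12 than at ZT0 in wild-type hearts, Nppa is low in the open points, and Actc1 and Myh6 hardly vary.

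Of the 7 genes, 1 changed between the times of day (Rcan1, lower at ZT12), against a background of 1.13% of all genes tested (0.645% higher and 0.482% lower). Between knockout and wild type at ZT12, 2 changed (Acta1 lower, Rcan1 higher), against 0.73% (0.442% higher and 0.289% lower). Between knockout hearts at ZT12 and wild-type hearts at ZT0, 1 changed (Acta1, lower), against 1.34% (0.965% higher and 0.379% lower). The 2 comparisons with knockout hearts share those 5 hearts, and the 2 comparisons with wild-type hearts at ZT12 share those 7. Since the members were chosen with earlier results of these data known, these counts beside the background are a description.

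**Figure D2:**
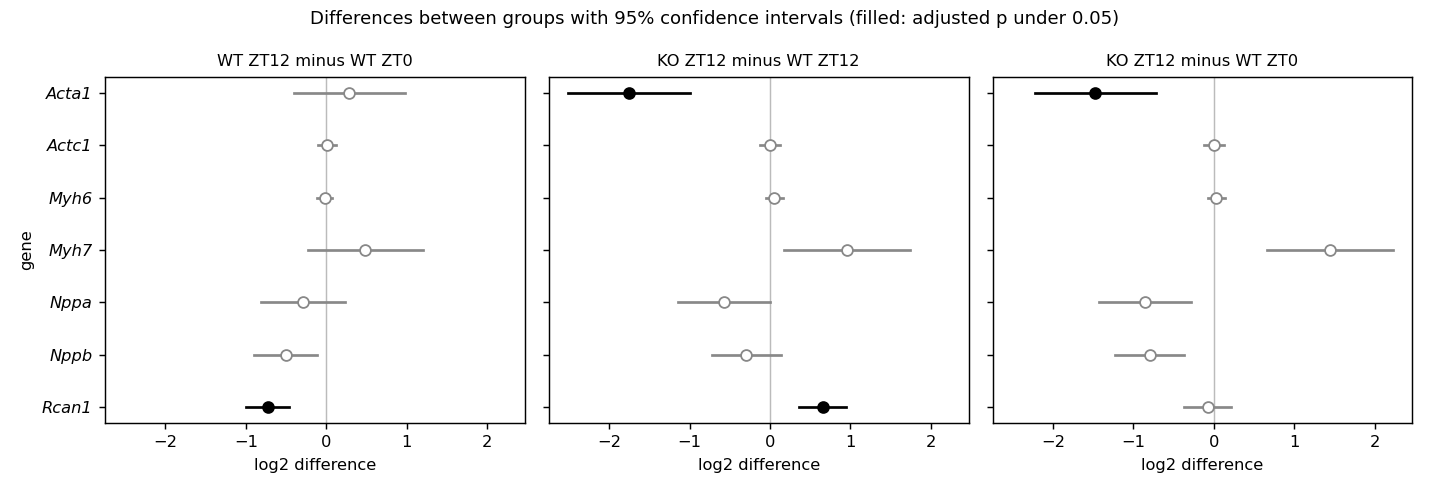
Log2 difference (horizontal axis) of each gene (vertical axis) in the 3 comparisons, with its 95% confidence interval from limma; filled points passed an adjusted p of 0.05. Acta1 lies at -1.76 and -1.47 in the comparisons with knockout hearts, Rcan1 at -0.73 and 0.65 in the comparisons with wild-type hearts at ZT12, and the intervals of Actc1 and Myh6 are narrow around 0.

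Acta1 encodes the alpha actin of skeletal muscle thin filaments, which the adult mouse heart makes beside its cardiac form. Its level was 8.10, 6.82, 7.37, 7.33 and 5.78 in knockout replicates 1 to 5. Wild-type hearts at ZT12 had a lowest level of 8.122, a median of 8.739 and a highest of 10.12, so every knockout heart lay below every wild-type heart of that time. At ZT0 the lowest level was 7.662, the median 8.444 and the highest 9.259, and 4 of 5 knockout hearts lay below all of these. The share of all genes with groups set apart like this was not counted, for Acta1 or for the genes below.

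Acta1 was 3.38-fold lower in knockout than in wild-type hearts at ZT12 (log2 difference -1.76, SE 0.36; limma adjusted p = 0.0242), the fourth largest fall among all genes tested. By p it ranked 82 among all genes tested. Against wild-type hearts at ZT0 it was 2.77-fold lower (log2 difference -1.47, SE 0.36; limma adjusted p = 0.0458). The wild-type groups overlapped, with a log2 difference of 0.29 (SE 0.33; limma adjusted p = 0.801; 95% interval -0.40 to 0.98). The order of the means was thus 7.079 ± 0.858 (SD, n = 5) in knockout hearts, 8.549 ± 0.542 (SD, n = 7) at ZT0 and 8.835 ± 0.734 (SD, n = 7) in wild-type hearts at ZT12, the last pair not differing beyond their spread.

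The call at ZT12 was lost without KO ZT12 replicate 2 or 5 (limma adjusted p = 0.0633 to 0.0757) and when only the 12 arrays compared were fitted (limma adjusted p = 0.0808; 0.00512 to 0.525 over 11 alternatives). Without the 4 hearts low in atrial markers the difference was smaller, -0.89 (SE 0.37; limma adjusted p = 0.525), and -0.82 against ZT0 (SE 0.36; limma adjusted p = 0.512). With the atrial marker mean as a covariate the call at ZT12 was kept (-1.78) and that against ZT0 was not (-1.51). Among the 4 low hearts, Acta1 stood at 10.12 in the wild-type heart, the highest of all 19, and at 5.78 to 7.33 in the 3 knockout hearts; the part of atrial muscle in the difference was not tested. The call against ZT0 was lost in 14 of the 19 fits that each left out 1 heart (limma adjusted p = 0.0521 to 0.15) and under 5 of 11 alternatives (limma adjusted p = 0.0157 to 0.512 over all 11). The omissions that ended it were those of WT ZT0 replicates 1 to 6, WT ZT12 replicates 1, 3, 4 and 6, and KO ZT12 replicates 2 to 5.

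Actc1 encodes cardiac alpha actin, the main actin of the cardiomyocyte thin filament. It ranged from 12.25 to 12.54 over all 19 hearts, near the top of the array's range, and how far probes this bright still follow the RNA was not tested. Its log2 differences were 0.013 between the times of day, -0.0063 at ZT12 between genotypes and 0.0064 between knockout hearts and ZT0 (limma adjusted p = 0.96 to 0.987). The 95% interval for knockout minus wild type at ZT12 was -0.13 to 0.12. The within-group SD of Actc1 was 0.0702, against 0.705 for Acta1 and a median of 0.183 over all genes.

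The Acta1 to Actc1 log2 ratio within a heart restates Acta1, since Actc1 hardly varied. It averaged -5.33 ± 0.925 (SD, n = 5) in knockout hearts and -3.58 ± 0.689 (SD, n = 7) in wild-type hearts at ZT12. That is a log2 difference of -1.75 (exact two-sided permutation p = 0.00253, the smallest this design allows; 0.0227 adjusted over 9 ratio tests). Against ZT0 the difference was -1.48 (exact permutation p = 0.00505; 0.0227 adjusted). Between the wild-type groups it was 0.27 (exact permutation p = 0.429). The members were chosen with earlier results of these data known, and the adjustment covers only the 9 ratio tests. The ratio p values, here and below, are therefore a description. Without the 4 hearts low in atrial markers the differences were -0.84 and -0.77, where 2 knockout hearts allow no exact permutation p below 0.0714 and 0.0556, so the test cannot pass. Without KO ZT12 replicate 2, 3, 4 or 5 both ratios had an adjusted p of 0.0545 (exact permutation). With 4 knockout hearts the exact test allows no p below 0.00606, which the ratio at ZT12 reached in each of these fits. The ratio against ZT0 was at 0.0121 in each (exact permutation), and a single p at 0.00606 becomes 0.0545 over 9 tests. Without KO ZT12 replicate 1 both ratios reached 0.00606, and both calls were kept (exact permutation, adjusted p = 0.0273).

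The regions before the RefSeq starts of the paralogues are shown because Acta1, which fell, and Actc1, which did not pass, hold the same promoter element. The 250 bases before each start (GRCm38.p6, minus strand, written 5′ to 3′ in the direction of transcription) lie at chr8:123894776-123895025 for Acta1 and at chr2:114052876-114053125 for Actc1, and capitals mark every match to the motifs searched.
Acta1: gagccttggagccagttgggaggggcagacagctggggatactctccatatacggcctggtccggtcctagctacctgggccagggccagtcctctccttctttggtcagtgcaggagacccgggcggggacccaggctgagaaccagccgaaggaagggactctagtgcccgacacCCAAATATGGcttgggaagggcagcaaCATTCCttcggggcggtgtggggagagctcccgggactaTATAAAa
Actc1: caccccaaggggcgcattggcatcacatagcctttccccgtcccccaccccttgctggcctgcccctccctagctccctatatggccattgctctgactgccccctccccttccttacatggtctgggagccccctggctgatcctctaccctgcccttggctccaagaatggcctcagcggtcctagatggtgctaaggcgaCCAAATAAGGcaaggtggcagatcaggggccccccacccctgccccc
Both held 1 CArG box, the site of serum response factor, starting 73 bases before the Acta1 start and 47 before the Actc1 start. A CArG box was found in 1.48% of the 32536 distinct 250-base windows of the RefSeq table. Acta1 also held 1 TATAAA (12.3% of windows) and 1 CATTCC, the MCAT motif of TEAD factors (12.6%). All motifs were searched on both strands in the windows of all 7 genes. Those with no match were the core that nuclear receptors bind, AGGTCA (14.0% of windows), the RORE bound by Rev-erb proteins (0.332%), the D-box (3.07%) and the MEF2 box (2.89%). As searched, the RORE ended in AGGTCA, the nuclear receptor core, or in GGGTCA. A match describes these letters only.

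Myh6 encodes alpha myosin heavy chain, the fast motor protein of the adult mouse ventricle. It ranged from 11.84 to 11.96 over all hearts. Its within-group SD of 0.0273 was the smallest of all 22180 genes, and the 28 brightest genes had a median SD of 0.0512. Myh6 was at 11.95, 11.95, 11.94, 11.95 and 11.96 in knockout replicates 1 to 5. Of these, 4 lay above every wild-type heart at ZT12, but the log2 difference of 0.054 did not pass (SE 0.050; limma adjusted p = 0.753). The time of day gave -0.021 (limma adjusted p = 0.906) and knockout against ZT0 gave 0.033 (limma adjusted p = 0.862).

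Myh7 encodes beta myosin heavy chain, the slow motor of the fetal ventricle. Its levels in knockout replicates 1 to 5 were 7.97, 6.48, 6.22, 7.28 and 9.05. Wild-type hearts at ZT12 had a lowest value of 5.907, a median of 6.283 and a highest of 7.359, and 2 knockout hearts, replicates 1 and 5, lay above all of them. At ZT0 the lowest value was 5.28, the median 5.839 and the highest 6.671. Of the 5 knockout hearts 3 lay above all hearts at ZT0, and the knockout hearts spread over 2.83 between lowest and highest.

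Myh7 had means of 5.955 ± 0.487 (SD, n = 7) at ZT0, 6.443 ± 0.568 (SD, n = 7) in wild-type hearts at ZT12 and 7.399 ± 1.15 (SD, n = 5) in knockout hearts, and no neighbouring pair in this order differed past the threshold. The log2 difference was 0.96 between genotypes at ZT12 (SE 0.38; limma adjusted p = 0.345; 95% interval 0.17 to 1.74) and 0.49 between the times of day (SE 0.35; limma adjusted p = 0.638). Knockout hearts against ZT0 stood at 1.44 (SE 0.38; limma adjusted p = 0.0637). This was the seventh largest positive difference among all genes but ranked 355 by p, and it did not pass either. That value passed without KO ZT12 replicate 2 or 3 (limma adjusted p = 0.0213 to 0.0394), and over 11 alternatives its adjusted p ran from 0.0188 to 0.39. Without the 4 hearts low in atrial markers the differences were 0.57 at ZT12 and 1.14 against ZT0 (limma adjusted p = 0.809 and 0.39), and without KO ZT12 replicate 5 they were down to 0.54 and 1.03.

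Within a heart, the Myh7 to Myh6 log2 ratio rested almost wholly on Myh7. It averaged -5.96 ± 0.483 (SD, n = 7) at ZT0, -5.45 ± 0.589 (SD, n = 7) in wild-type hearts at ZT12 and -4.55 ± 1.15 (SD, n = 5) in knockout hearts. The difference of 1.41 between knockout hearts and ZT0 had an exact permutation p of 0.0177 but 0.053 after adjustment over the 9 ratio tests. It passed without WT ZT0 replicate 6 (exact permutation, adjusted p = 0.039). It was 1.11 without the 4 hearts low in atrial markers, where the exact test cannot pass. The differences of 0.90 between genotypes at ZT12 and 0.51 between the times of day did not pass (exact permutation p = 0.104 and 0.107; 0.193 adjusted for each).

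**Figure D3:**
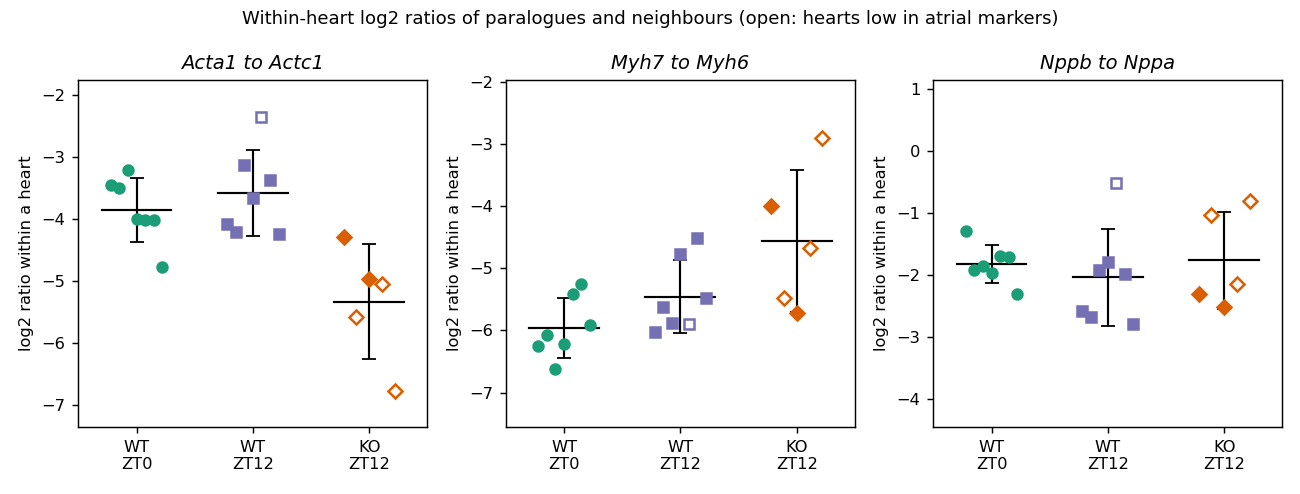
Within-heart log2 ratio (vertical axis) of Acta1 to Actc1, Myh7 to Myh6 and Nppb to Nppa in each heart of the 3 groups (horizontal axis); points are hearts, open points hearts low in atrial markers, lines the mean and bars the SD. The Acta1 to Actc1 ratio averages -5.33 in knockout hearts and -3.58 in wild-type hearts at ZT12; the Myh7 to Myh6 ratio spreads most in knockout hearts.

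The myosin genes lie next to each other, and each holds a microRNA of the miR-208 family in an intron, while the long noncoding RNA Mhrt is transcribed from the opposite strand at Myh7. These 3 neighbours were looked at after their values were seen. Mhrt was at 8.334 ± 0.142 (SD, n = 7) at ZT0, 8.421 ± 0.0881 (SD, n = 7) in wild-type hearts at ZT12 and 8.685 ± 0.133 (SD, n = 5) in knockout hearts, all 5 knockout hearts lying above every wild-type heart (8.569 or more, against 8.532 or less). It was higher in knockout hearts than at ZT0 (log2 difference 0.35, SE 0.079; limma adjusted p = 0.0257), but this did not hold when WT ZT0 replicate 1, 2, 4 or 5 or KO ZT12 replicate 3 or 4 was left out (limma adjusted p = 0.0505 to 0.0936) or the 4 hearts low in atrial markers were (0.235; 0.0033 to 0.235 over 11 alternatives). Over these 11 the Mhrt difference against ZT0 ran from 0.33 to 0.39. At ZT12 the difference of 0.26 between genotypes did not pass (SE 0.079; limma adjusted p = 0.158). The probe sets of Mir208a and Mir208b, which would read precursor RNA, were at 3.568 to 5.642 and 1.187 to 1.77 over all hearts and did not pass in any comparison. All Mir208b values lay below the array medians of 3.25 to 3.32, and whether either probe set showed RNA above background was not tested. The mature forms, from RefSeq (GRCm38.p6), are shown because they share their seed (bases 2 to 8, in capitals) and mark the alpha and beta myosin gene.
mmu-miR-208a-3p: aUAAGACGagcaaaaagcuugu
mmu-miR-208b-3p: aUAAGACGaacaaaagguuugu
The first lies at chr14:54949072-54949093 and the second at chr14:54975710-54975731, both on the minus strand. For the promoters, 1 MCAT motif was found 206 bases before the Myh6 start and 1 was found 201 bases before the first Myh7 start, both on the opposite strand; the Myh7 window lies at chr14:54994627-54994876.

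Nppa encodes atrial natriuretic peptide, a hormone that lowers blood volume and pressure and comes mainly from the atria after birth. Its levels in knockout replicates 1 to 5 were 12.72, 10.99, 12.65, 11.21 and 11.33. Wild-type hearts at ZT12 had a lowest value of 11.23, a median of 12.53 and a highest of 12.75, and hearts at ZT0 a lowest of 12.52, a median of 12.63 and a highest of 12.80. The hearts thus fell into separate clusters: the 4 low in atrial markers read 10.99 to 11.33, and the other 15 read 12.24 or more.

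The log2 difference of Nppa was -0.57 between genotypes at ZT12 (SE 0.28; limma adjusted p = 0.476), -0.29 between the times of day (SE 0.25; limma adjusted p = 0.722) and -0.86 between knockout hearts and ZT0 (SE 0.28; limma adjusted p = 0.15), none of which passed. The last of these passed without KO ZT12 replicate 1 (-1.10; limma adjusted p = 0.0468). With those 4 hearts left out the values were 0.15, -0.10 and 0.048, so that the sign turned in both comparisons with knockout hearts. With the atrial marker mean as a covariate, knockout against ZT0 was at 0.0033 and the time of day at 0.13. The genes whose group-centred values ran most like Nppa over the 19 hearts were the atrial genes Mybphl (Pearson r 0.985), Myl7 (0.972) and Sln (0.963), out of 10344 genes searched. These 3 correlations include the 4 hearts low in atrial markers and are given as a description.

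**Figure D4:**
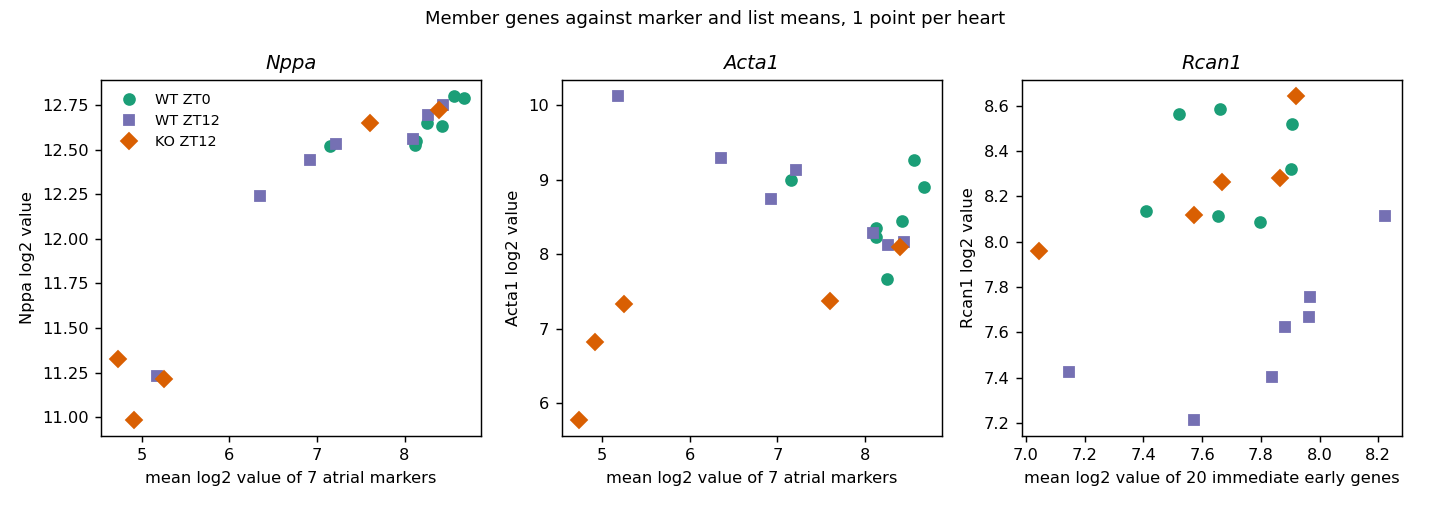
Log2 value of Nppa, Acta1 and Rcan1 (vertical axes) against the mean log2 value of 7 atrial markers or 20 immediate early genes (horizontal axes), 1 point per heart. Nppa is at 11.33 or below in the 4 hearts with an atrial mean of 5.25 or below; Acta1 is at 10.12 in the wild-type one of these and at 5.78 to 7.33 in the knockout ones; Rcan1 of wild-type hearts at ZT12 lies below most other hearts at the same immediate early level.

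Nppb encodes B-type natriuretic peptide, which ventricular muscle makes under stretch. Its levels in knockout replicates 1 to 5 were 10.41, 9.95, 10.14, 9.08 and 10.52. Wild-type hearts at ZT12 had a lowest value of 9.959, a median of 10.33 and a highest of 10.71, and hearts at ZT0 a lowest of 10.34, a median of 10.88 and a highest of 11.22. All 7 wild-type hearts at ZT12 and all 5 knockout hearts lay below the ZT0 mean, although the ranges overlapped.

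Its means ran from 10.02 ± 0.573 (SD, n = 5) in knockout hearts over 10.32 ± 0.33 (SD, n = 7) in wild-type hearts at ZT12 to 10.82 ± 0.287 (SD, n = 7) at ZT0. Neither the difference between the times of day (-0.50, SE 0.19; limma adjusted p = 0.28; 95% interval -0.89 to -0.11) nor that between genotypes (-0.30, SE 0.21; limma adjusted p = 0.66) passed. Knockout hearts against ZT0 were at -0.80 (SE 0.21; limma adjusted p = 0.058), which passed without WT ZT0 replicate 7 or KO ZT12 replicate 1 or 5 (limma adjusted p = 0.036 to 0.0485) and ran from 0.0299 to 0.413 over 11 alternatives. When the 4 hearts low in atrial markers were left out, the difference between genotypes was 0.027, that between the times of day -0.57 (limma adjusted p = 0.0775) and that between knockout hearts and ZT0 -0.54 (0.413). The Nppb to Nppa log2 ratio differed by -0.22, 0.27 and 0.059 in the 3 comparisons (exact permutation p = 0.526, 0.566 and 0.831).

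Like Nppb ran Frmd5 (r 0.849), Tnfrsf12a (r 0.795) and the stretch-responsive gene Ankrd1 (r 0.77), over group-centred values of 19 hearts, given as a description. Of these, Tnfrsf12a, which encodes the receptor of the cytokine TWEAK, was lower in knockout hearts than at ZT0 (log2 difference -0.80, SE 0.14; limma adjusted p = 0.00322), a call kept in all 19 fits without 1 heart but not without the 4 hearts low in atrial markers (0.093; 0.00128 to 0.093 over 11 alternatives). The Tnfrsf12a difference ran from -0.84 to -0.75 over these 11 alternatives. Ankrd1 was lower in knockout than in wild-type hearts at ZT12 (log2 difference -0.45, SE 0.096; limma adjusted p = 0.0302).

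Nppb and Nppa lie side by side, Nppb first, and the 250 bases before their starts are shown because this pair is known as a joint target of GATA4 in heart muscle. They lie on the plus strand of GRCm38.p6 at chr4:147985650-147985899 and chr4:148000472-148000721, and capitals mark motif matches.
Nppb: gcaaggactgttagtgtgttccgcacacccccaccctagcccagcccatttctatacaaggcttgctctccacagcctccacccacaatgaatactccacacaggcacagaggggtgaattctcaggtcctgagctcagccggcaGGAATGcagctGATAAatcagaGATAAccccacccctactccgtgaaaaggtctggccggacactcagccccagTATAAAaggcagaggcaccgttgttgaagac
Nppa: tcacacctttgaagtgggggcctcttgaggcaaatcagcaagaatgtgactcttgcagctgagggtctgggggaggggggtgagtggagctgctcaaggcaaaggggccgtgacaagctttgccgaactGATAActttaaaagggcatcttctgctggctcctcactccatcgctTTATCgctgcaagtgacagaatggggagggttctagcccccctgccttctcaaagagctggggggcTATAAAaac
Each held 2 matches to GATAA, on either strand, which 22.5% of windows have, and 1 TATA box; Nppb also held 1 MCAT motif. Gata4 itself was lower at ZT12 than at ZT0 in wild-type hearts (log2 difference -0.38, SE 0.084; limma adjusted p = 0.0257). Leaving out WT ZT12 replicate 2 or 7, or replicate 4 of WT ZT0, ended that call (limma adjusted p = 0.0598 to 0.0658), as did leaving out the 4 hearts low in atrial markers (limma adjusted p = 0.00561 to 0.0872 over 11 alternatives). The Gata4 difference ran from -0.42 to -0.36 over these 11.

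Rcan1 was the member that changed with the time of day. In wild-type hearts its lowest value was 8.085, its median 8.32 and its highest 8.583 at ZT0, and 7.215, 7.623 and 8.113 at ZT12, so that 6 of 7 hearts at ZT12 lay below every heart at ZT0. Knockout replicates 1 to 5 read 8.64, 8.26, 7.96, 8.12 and 8.28, and 4 of these 5 lay above every wild-type heart of the same time. Means were 8.33 ± 0.223 (SD, n = 7) at ZT0, 7.6 ± 0.292 (SD, n = 7) in wild-type hearts at ZT12 and 8.252 ± 0.254 (SD, n = 5) in knockout hearts.

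Rcan1 was 1.66-fold lower at ZT12 than at ZT0 in wild-type hearts (log2 difference -0.73, SE 0.13; limma adjusted p = 0.00321), and the call was kept in all 19 fits without 1 heart (limma adjusted p = 0.000666 to 0.0107) and under all 11 alternatives (0.000244 to 0.0247). It was 1.57-fold higher in knockout than in wild-type hearts at ZT12 (log2 difference 0.65, SE 0.14; limma adjusted p = 0.0302). Knockout hearts at ZT12 and wild-type hearts at ZT0 did not differ beyond their spread (log2 difference -0.078, SE 0.14; limma adjusted p = 0.89; 95% interval -0.37 to 0.21).

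The difference between genotypes kept its size but not always its call. It was lost without WT ZT12 replicate 1, 3 or 5 or KO ZT12 replicate 1, 2 or 5 (limma adjusted p = 0.0561 to 0.0746) and with only the arrays compared (limma adjusted p = 0.0853; 0.00295 to 0.335 over 11 alternatives). It was 0.67 with the 4 hearts low in atrial markers left out (SE 0.21; limma adjusted p = 0.335). The immediate early genes, which reperfusion is known to induce, had list means of 7.41 to 7.906 at ZT0, 7.147 to 8.222 in wild-type hearts at ZT12 and 7.045 to 7.92 in knockout hearts. With this mean as a covariate both Rcan1 calls were kept (limma adjusted p = 0.000244 and 0.00295). The genes whose group-centred values ran most like Rcan1 over the 19 hearts were Akap12 (r 0.848), Pde4b (r 0.839) and the immediate early gene Ier3 (r 0.827), as a description. Their log2 differences were -0.0166, -0.00177 and 0.513 between the times and -0.279, 0.031 and -0.185 between genotypes. Rcan1 was at -0.73 and 0.65 in the same comparisons.

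Rcan1 has 2 RefSeq starts, and the window before each is shown because they differ in the motifs they hold. They lie on the minus strand of GRCm38.p6 at chr16:92466170-92466419 for the start of the longer transcript and at chr16:92400079-92400328 for the start inside the gene, the form known to be induced by calcineurin. Which of these the probe set follows cannot be told apart with 1 value per gene.
Rcan1, upstream start: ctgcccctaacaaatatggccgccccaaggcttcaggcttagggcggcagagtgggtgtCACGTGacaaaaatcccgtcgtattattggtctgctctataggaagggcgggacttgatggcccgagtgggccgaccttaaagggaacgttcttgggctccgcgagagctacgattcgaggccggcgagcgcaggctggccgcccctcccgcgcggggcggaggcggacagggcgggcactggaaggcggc
Rcan1, internal start: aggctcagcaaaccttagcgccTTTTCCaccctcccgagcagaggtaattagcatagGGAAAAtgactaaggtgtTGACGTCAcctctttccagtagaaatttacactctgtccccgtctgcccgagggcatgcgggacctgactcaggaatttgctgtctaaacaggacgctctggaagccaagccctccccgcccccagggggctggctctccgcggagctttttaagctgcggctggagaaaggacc
The upstream window held 1 CACGTG, the E-box of clock activators, 191 bases before the start, which 6.04% of windows have. The internal window held 2 GGAAAA, the core of NFAT sites (20.4% of windows), and 1 TGACGTCA, the cAMP response element (1.56%).

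Other genes of the pathways were taken from lists by function and are read against the medians of all genes, which were -0.0035, -0.0031 and -0.0076 in the 3 comparisons. Of 15 measured calcineurin and NFAT genes, 0 rose, 0 fell and 15 did not pass in each comparison; unadjusted, Nfatc3 (-0.22) and the catalytic subunit Ppp3cc (0.19) had the smallest p between the times of day. The relative Rcan2 was at 0.072 between the times and -0.038 between genotypes. List medians were 0.031, -0.011 and 0.062.

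In the natriuretic peptide system, 14 genes of receptors, processing enzymes and cyclic GMP signalling were measured. Between the times of day 0 rose and 0 fell. Between genotypes at ZT12, 2 rose and 12 did not pass: Prkg1, the cyclic GMP-dependent kinase (log2 difference 0.40, SE 0.092; limma adjusted p = 0.045), and Pde2a, a phosphodiesterase (0.32, SE 0.065; limma adjusted p = 0.0182). Against ZT0, 1 rose and 13 did not pass, with Prkg1 at 0.63 (SE 0.092; limma adjusted p = 0.000428). List medians were -0.064, 0.054 and 0.0096. The receptor gene Npr1 did not pass, at -0.46 for knockout against ZT0 (limma adjusted p = 0.069). The call for Prkg1 at ZT12 was lost in 14 of 19 fits without 1 heart (limma adjusted p = 0.0527 to 0.139), and that against ZT0 was kept in all 19. The Pde2a call was lost without KO ZT12 replicate 2 (0.0573). When the 4 hearts low in atrial markers were left out both ZT12 calls were lost (limma adjusted p = 0.314 and 0.259, the highest of 11 alternatives each) and Prkg1 against ZT0 was kept (0.0144). Over the 11 alternatives the ZT12 differences ran from 0.37 to 0.44 for Prkg1 and from 0.30 to 0.34 for Pde2a.

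Among 22 measured transcription factors of cardiac promoters, 0 rose and 2 fell between the times of day, 0 rose and 1 fell between genotypes, and 1 rose and 1 fell between knockout hearts and ZT0. Thra, the thyroid hormone receptor gene known to favour Myh6 over Myh7, was lower in each: -0.35 (SE 0.077; limma adjusted p = 0.0227), -0.37 (SE 0.085; limma adjusted p = 0.0401) and -0.73 (SE 0.085; limma adjusted p = 2.55e-05). Thra overlaps Nr1d1, the deleted gene, on the opposite strand. The first of these calls did not hold in the 3 fits without WT ZT12 replicate 3 or without WT ZT0 replicate 2 or 4 (limma adjusted p = 0.0502 to 0.0543), and the second in 13 of 19 fits without 1 heart (limma adjusted p = 0.0506 to 0.12) and under 7 of 11 alternatives (0.0155 to 0.216 over all 11). Gata6 was higher in knockout hearts than at ZT0 (0.43, SE 0.084; limma adjusted p = 0.00935), a call lost without the 4 hearts low in atrial markers (0.312; 0.00123 to 0.312 over 11 alternatives). The Gata6 difference ran from 0.33 to 0.46 over these 11.

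Of 13 other actins and myosin heavy chains, 0 rose and 0 fell in each comparison, with medians of -0.12, -0.011 and -0.041; Acta2 was at -0.36 and Actb at -0.26 between the times of day (limma adjusted p = 0.281 and 0.172), and Myh11 at 0.26 and Myh3 at 0.20 between genotypes (0.473 and 0.566). Of 20 other sarcomere subunits, 1 fell, Myl1, between knockout hearts and ZT0 (-0.83, SE 0.20; limma adjusted p = 0.0394), with list medians of -0.023, 0.00014 and -0.022. The Myl1 call was lost in 8 of 19 fits without 1 heart (limma adjusted p = 0.0509 to 0.13) and without the 4 hearts low in atrial markers (-0.21; limma adjusted p = 0.818; 0.0196 to 0.818 over 11 alternatives).

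Of 20 measured genes of cardiac load and hypertrophy, 1 fell in each comparison and 0 rose. Cited4, a transcriptional coregulator that exercise is known to raise in the heart, fell between the times of day (-0.57, SE 0.088; limma adjusted p = 0.000726) and was lower in knockout hearts than at ZT0 (-0.42, SE 0.096; limma adjusted p = 0.031), and Ankrd1 fell between genotypes. The Ankrd1 call was lost without WT ZT12 replicate 3, 4, 5 or 6 or KO ZT12 replicate 3, 4 or 5 (limma adjusted p = 0.0512 to 0.104) and without the 4 hearts low in atrial markers (0.492; 0.0118 to 0.492 over 11 alternatives). The Ankrd1 difference ran from -0.49 to -0.31 over these 11. The second Cited4 call was lost in 8 of 19 fits without 1 heart (limma adjusted p = 0.0532 to 0.0876). It was kept under 8 of 11 alternatives (limma adjusted p = 0.0122 to 0.106 over all 11). List medians were -0.025, -0.023 and -0.043.

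Among 20 immediate early genes 1 rose between the times of day (Ier3, 0.51, SE 0.11; limma adjusted p = 0.0224) and 1 fell between genotypes (Nr4a3, -0.87, SE 0.20; limma adjusted p = 0.0442), with medians of 0.11, -0.16 and -0.097. The Ier3 call ended when WT ZT12 replicate 2, 4 or 6 was left out, or replicate 2 or 4 of WT ZT0 (limma adjusted p = 0.0521 to 0.0564), and the Nr4a3 call in 14 of 19 fits without 1 heart (limma adjusted p = 0.0535 to 0.117). Over 11 alternatives the Ier3 call was kept under 10 (limma adjusted p = 0.00719 to 0.088). The Nr4a3 call was kept under 5 of the 11 (limma adjusted p = 0.0141 to 0.187 over all 11). Of 6 ventricular markers 1 rose between the times of day (Lrrc10, 0.38, SE 0.072; limma adjusted p = 0.00727). Skeletal muscle markers, which would share Acta1, had list means of 3.383 to 3.545 at ZT0, 3.301 to 3.532 in wild-type hearts at ZT12 and 3.245 to 3.453 in knockout hearts, and of 11 only Myl1 passed, against ZT0. Their median was -0.041 between the times of day and -0.10 between genotypes at ZT12, with 2 of 11 above 0 in the latter. Against ZT0 it was -0.099, with 4 of 11 above 0. Myh1 read 1.35 to 2.445 and Myl1 5.04 to 7.116 over all hearts, against array medians of 3.25 to 3.32. Which of these markers showed RNA above background was not tested, nor was their part in the Acta1 difference. Of 6 smooth muscle markers 0 passed in each comparison.

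The members differed in how much they varied between hearts of a group. By within-group SD, Myh7 (0.735), Acta1 (0.705), Nppa (0.531) and Nppb (0.392) had ranks 33, 40, 89 and 477 of 22180 genes, Rcan1 (0.258) rank 3662, and Actc1 and Myh6 ranks 21917 and 22180. Of 21 pairs of group-centred values over 19 hearts, 0 passed after adjustment by Pearson and 0 by Spearman correlation (permutation tests within groups), with 2 and 3 pairs at an unadjusted p under 0.05.

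The closest positive pair over all 19 hearts was Actc1 with Nppb (Pearson r 0.416, permutation p = 0.114, adjusted p = 0.646). Its Spearman rho was 0.53 (permutation p = 0.0285, adjusted p = 0.292). With the 4 hearts low in atrial markers left out, a choice made after seeing the data, the closest was Acta1 with Nppb. Over those 15 hearts Pearson r was 0.789 (permutation p = 0.00246, adjusted p = 0.0517). Spearman rho was 0.788 (permutation p = 0.00263, adjusted p = 0.0552), and r was 0.748 without the 2 hearts farthest from the median of Acta1. Over all 19 hearts Acta1 and Nppb had r 0.34 (permutation p = 0.227, adjusted p = 0.646). Within groups, as a description, their r was 0.8 at ZT0 and 0.82 in wild-type hearts at ZT12 (7 hearts each) but -0.221 in the 5 knockout hearts. Myh6 and Nppb had r -0.479 over all hearts (permutation p = 0.0172, adjusted p = 0.362), and Acta1 and Myh6 had r -0.483 (permutation p = 0.0428, adjusted p = 0.45). Acta1 and Myh7 had r -0.346 (permutation p = 0.234, adjusted p = 0.646; -0.018 without the 2 hearts farthest from the median of Acta1). KO ZT12 replicate 5 held the lowest Acta1 and the highest Myh7 of all hearts.

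The genes most like Acta1 were Def8 (r 0.839), the Z-disc and nuclear protein gene Csrp3 (0.788) and Tbx10 (0.764), and those most like Myh7 were the chaperone gene Hspa8 (0.884), Smim19 (0.864) and Bbs4 (0.862), over group-centred values of 19 hearts. For Actc1 they were Slain2 (0.875), Akr1e1 (0.854) and Mrpl38 (0.844), and for Myh6 Pcyox1l (0.811), Stx16 (0.8) and Trim8 (0.771). None of these 12 genes passed between genotypes at ZT12 (limma adjusted p = 0.395 to 0.956). With 10344 genes searched over 19 hearts, these values are a description.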

How the data were processed

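Whole hearts were profiled on Affymetrix arrays from 300 ng of total RNA per heart, per the labels' protocols. The authors deposited log2 probe set values made with RMA, per the submitters' processing notes; the scale was taken as log2 from the range of 0.2081 to 12.88, and neither its version nor the annotation used is given in the sources used here. Of 41345 probe sets, 23521 list 1 gene, 1814 several and 16010 none; only the first were used, and the brightest probe set stood for a gene. Symbols came from GEO's platform annotation, checked against RefSeq (GRCm38.p6; 23328 matched, 0 changed). Groups were compared with limma 3.58.1 (R 4.3.3; 1 mean per group, all 19 arrays, eBayes), two-sided, adjusted by Benjamini-Hochberg over 22180 genes. Ratios used exact permutation tests (scipy 1.17.1) and pairs 100000 permutations within groups. The number of arrays limits the precision: the median SE was 0.096 to 0.105. The members and lists were chosen with earlier results of these data known. Named genes were the members, every list gene that passed or the 2 with the smallest p, and the 3 genes most like each member. Same-numbered replicates did not deviate together (17 pairs, r -0.0741 to 0.0308), so the numbers were not used to pair hearts. Promoter and microRNA sequences are RefSeq's.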

Additional observations from a re-analysis of the deposited data

Results flagged for a closer look

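Of 30 sets of values checked (7 genes and 3 within-heart ratios in 3 groups), 1 held a heart far from the others. Nppa in WT ZT12 replicate 5 was at 11.23, against 12.24 to 12.75 in the other 6 hearts, a gap of 0.666 of the whole range where the critical value for 7 hearts is 0.568. Chance alone flags about 1 in 20 such sets. The same heart had an atrial marker mean of 5.18, the lowest of the wild-type hearts, and the highest Acta1 of all, at 10.12.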

How the results depend on the processing

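Rcan1 was the 1 member called between the times of day in every setting, also without any 1 replicate (1 to 1). Between genotypes at ZT12, where 2 members were called, 0 were called with only the arrays compared and 0 without the 4 hearts low in atrial markers (chosen after seeing the data); leaving out single replicates gave 0 to 2. Against ZT0, where 1 was called, the count was 2 with quantile normalisation, array weights or the immediate early mean as covariate, 3 with dim probe sets left out, and 0 with trend and robust eBayes, only the arrays compared, the atrial covariate or without the 4 hearts; single omissions gave 0 to 3. The cause of these changes was not tested. Values near 0 changed sign. Quantile normalisation turned Myh6 between the times to 0.013, and array weights turned Actc1 against ZT0 to -0.0066. The atrial covariate turned Actc1 to -0.014 between the times and -0.048 against ZT0, Nppa to 0.13 and 0.0033, and Rcan1 against ZT0 to 0.052. Without the 4 hearts, Actc1 and Nppa against ZT0 stood at -0.043 and 0.048, Nppa and Nppb between genotypes at 0.15 and 0.027, the Acta1 to Actc1 ratio at -0.84 and -0.77, and the Nppb to Nppa ratio at -0.12 and -0.59; the exact test of a ratio cannot pass with the 2 knockout hearts left. With single replicates left out, Actc1 ran from -0.012 to 0.026 between the times, -0.039 to 0.012 between genotypes and -0.026 to 0.024 against ZT0. The same omissions gave -2.01 to -1.39 and -1.74 to -1.12 for the Acta1 to Actc1 ratio, 1.0 to 1.70 for the Myh7 to Myh6 ratio against ZT0 and -0.18 to 0.25 for the Nppb to Nppa ratio against ZT0.

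The replicate numbers do not pair the hearts (1 heart was closest to its own number). With the replicate block, 1 member was called between genotypes (Acta1, not Rcan1) and 1 against ZT0 (Myh7, not Acta1). The Myh7 to Myh6 ratio passed at 1.07 and 1.58 (limma), and the Nppb to Nppa ratio against ZT0 was -0.048. These blocked ratios were tested with limma in place of the exact permutation test. Whether the block or the change of test made the Myh7 to Myh6 ratio pass cannot be told apart. Counts over all genes, 250, 162 and 298 of 22180 in the 3 comparisons, became 416, 289 and 529 of 11440 with dim probe sets left out. They became 270 between genotypes and 444 against ZT0 with trend and robust eBayes, of 22180 as in the counts that follow. In the 2 comparisons with knockout hearts they were 72 and 187 when only the arrays compared were fitted. There they were 88 and 182 with the replicate block, and 19 and 84 without the 4 hearts. Against ZT0 they were 159 with the atrial covariate, 303 with quantile normalisation, 308 with array weights and 346 with the immediate early mean as covariate. Actc1, Myh6 and Nppa lie near the highest array value of 12.88, and whether brightness limits their differences was not tested.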
